A study of Mus musculus with 10 samples.

Results

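Retinoid enzymes and retinoic acid receptors were followed in mouse keratinocytes with a deletion of RhoA, a GTPase of the actin cytoskeleton, and in control keratinocytes. The members were 37 genes listed by their role in retinoid metabolism and signalling, and were taken as every probe set that the platform annotation gives to exactly 1 of these symbols. The rule found 59 probe sets for 36 of them, out of 45037 probe sets and 18193 named genes on the array. No probe set was matched to Dhrs9, and 2 probe sets that the annotation shares between a member and another gene were left out.

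The series holds 10 arrays in 4 groups: 3 of cultured RhoA-KO, 3 of cultured Wildtype, 2 of freshly isolated RhoA-KO and 2 of freshly isolated Wildtype keratinocytes, all from skin. The KO genotype is RhoA fl/fl K5 cre. The groups titled Wildtype, called control here, are RhoA fl/+ K5 cre, so that they carry the Cre and a floxed allele too. The K5 promoter drives Cre in basal keratinocytes and their progeny, so other cells of a fresh preparation would keep RhoA, and ages and animals are not given in the labels. The samples are titled biological replicates with no animal named, so the p-values speak of the spread among these arrays, which may be technical.

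Retinoic acid is made from vitamin A by oxidation. Retinol is oxidised reversibly to retinal by short-chain and alcohol dehydrogenases, retinal is oxidised irreversibly to retinoic acid by ALDH1A enzymes, reductases turn retinal back to retinol, LRAT stores retinol as esters, and CYP26 enzymes degrade retinoic acid. Retinoic acid binds heterodimers of RAR and RXR nuclear receptors, and in epidermis it is known for restraining keratinocyte differentiation and for acting mainly through RARG and RXRA.

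Retinoic acid receptors bind direct repeats of a 6-base half-site, classically with 5 bases between the copies (DR5), and RXR with PPAR binds repeats with 1 base between (DR1). Promoter windows from RefSeq (build GRCm38.p6), each 250 bases before to 50 after a gene's start, matched 31 of the 37 members, in 44 windows. They were searched on both strands for 2 copies of AGGTCA in which the first base may also be G and the third also T. A DR5 repeat stood in 2 member windows, those of Rarb and Cyp26a1, and in 0.0974% of 32851 windows of all genes. A DR1 repeat stood in the window of Bco1 and in 0.222% of all windows, and a repeat with 2 bases between in no member window and in 0.268% of all. The windows with a repeat are shown because 2 of them belong to textbook retinoic acid targets whose probe sets lay below the median of all 10 arrays, with the repeat in capitals. That of Cyp26b1 is shown because its signal was lower in KO in both conditions; it held none of these repeats, and the capital marks its first transcribed base.
Rarb (chr14:16575427-16575726, minus strand): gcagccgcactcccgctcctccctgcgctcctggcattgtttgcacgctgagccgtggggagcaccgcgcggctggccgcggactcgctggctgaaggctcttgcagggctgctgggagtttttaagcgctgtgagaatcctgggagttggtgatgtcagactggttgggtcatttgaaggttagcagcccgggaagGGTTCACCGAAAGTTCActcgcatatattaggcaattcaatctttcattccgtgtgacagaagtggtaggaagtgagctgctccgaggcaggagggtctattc
Cyp26a1 (chr19:37697558-37697857, plus strand): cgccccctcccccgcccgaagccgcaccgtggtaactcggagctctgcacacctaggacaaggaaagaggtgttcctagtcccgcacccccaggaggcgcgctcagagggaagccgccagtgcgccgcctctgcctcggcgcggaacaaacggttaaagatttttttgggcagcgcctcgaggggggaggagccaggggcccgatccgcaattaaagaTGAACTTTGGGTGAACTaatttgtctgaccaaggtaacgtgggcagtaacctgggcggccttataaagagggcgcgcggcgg
Bco1 (chr8:117095615-117095914, plus strand): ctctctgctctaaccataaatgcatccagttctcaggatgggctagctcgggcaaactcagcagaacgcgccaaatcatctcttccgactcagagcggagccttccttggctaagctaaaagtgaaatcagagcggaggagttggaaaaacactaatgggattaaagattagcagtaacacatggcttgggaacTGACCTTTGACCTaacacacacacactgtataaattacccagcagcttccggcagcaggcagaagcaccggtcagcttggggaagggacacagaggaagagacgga
Cyp26b1 (chr6:84593761-84594060, minus strand): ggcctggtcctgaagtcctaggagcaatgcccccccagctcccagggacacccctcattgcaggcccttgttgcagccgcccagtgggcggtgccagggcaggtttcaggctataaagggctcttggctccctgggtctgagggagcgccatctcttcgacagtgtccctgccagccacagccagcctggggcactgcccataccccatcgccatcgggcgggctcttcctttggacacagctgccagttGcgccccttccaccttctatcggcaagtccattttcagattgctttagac
The repeat lay 53 to 37 bases before the start in Rarb, 32 to 16 before it in Cyp26a1 and 56 to 44 before it in Bco1, on the gene's strand in Rarb and on the opposite strand in Cyp26a1 and Bco1. These matches are descriptions of letters, not of binding.

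Each value is the linear signal the authors deposited for a probe set on an array. Cultured arrays had medians of 7.75 to 8 units with 53.9% to 54.3% of probe sets below 10, and fresh arrays had medians of 64.1 to 64.8 with 0.102% to 0.140% below 10, so levels are compared within a condition. Rhoa itself, by the probe set that stands for it, read 8209, 7839 and 7628 on cultured KO arrays against 11249, 9879 and 9240 on control arrays. In fresh cells it read 4398 and 4296 on KO arrays against 3526 and 4059 on control arrays. Whether these probe sets fall inside the deleted region is not known here, so these levels check no label. Of 7 keratinocyte markers, 6 lay above the array's median on every cultured array and 7 on every fresh one. Fresh KO replicate 2 stood apart: all 6 inner root sheath genes were highest on it, with a summed signal of 30788 against 303 on KO replicate 1 and 403 to 1003 on control arrays. Among the fresh arrays, summed signals of Langerhans cell and myeloid genes were 6426 to 14278 in KO against 17442 to 21914 in control, of melanocyte genes 892 to 4350 in KO against 439 to 581 in control, and of fibroblast genes 445 to 1344 in KO against 278 to 303 in control.

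Of 36 members, 21 had enough signal to be tested in culture and 28 in fresh cells, where 22682 and 22893 of all 45037 probe sets were tested, and whether members differ from other genes in this was not tested. By the probe set that stands for each gene, 20 lay above the array's median on all 10 arrays. Of the 59 probe sets, 5 lay below the median on every cultured array and above it on every fresh array, those of Adh1, Aldh1a1, Aldh1a7, Rdh1 and Rarres1. Over all probe sets 6.3% showed this pattern, so that the count of members lies near the background and is given as a description. Their signals were 4.52 to 6.27 units on cultured arrays and 126 to 2283 on fresh arrays. Adh1 and Rdh1 encode retinol-oxidising dehydrogenases, Aldh1a1 a retinal dehydrogenase and Aldh1a7 its rodent relative next to it on the chromosome, and Rarres1 was first described as a gene induced by a synthetic retinoid. The opposite pattern was shown by 1 probe set, of Nrip1, where the share over all probe sets was 6.77%; 3 other Nrip1 probe sets lay above the median on all 10 arrays.

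**Figure D1:**
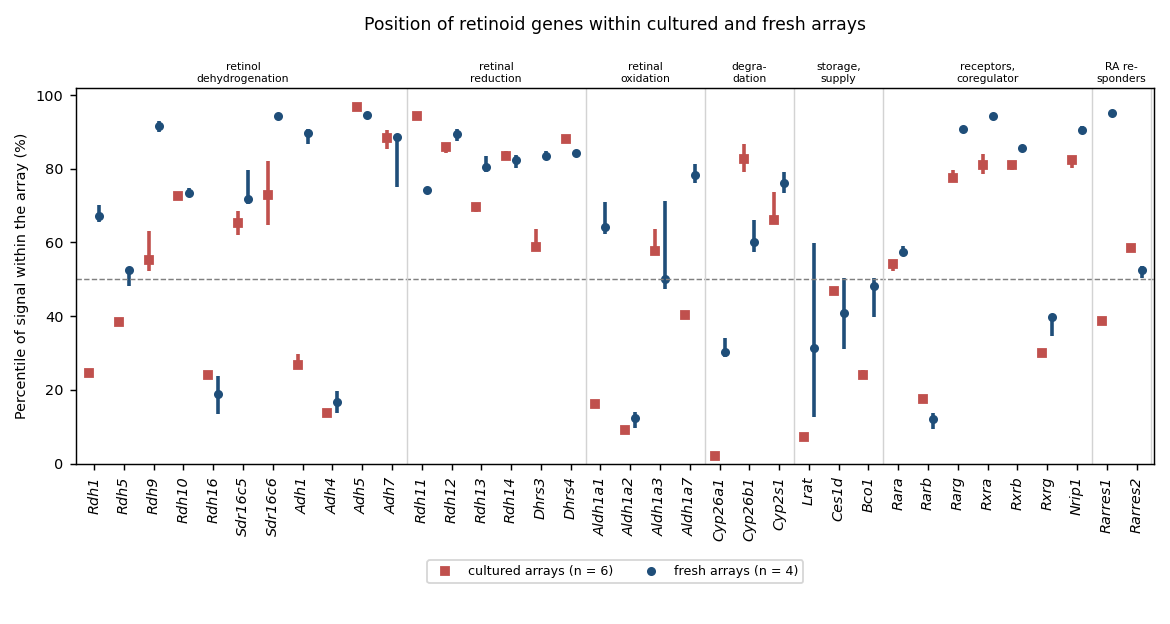
Percentile of each gene's signal within its array (vertical axis, %), for the probe set that stands for each of the 36 genes (horizontal axis), grouped by step; squares and circles are medians over 6 cultured and 4 fresh arrays, and bars run from the lowest to the highest array. Adh1, Aldh1a1, Aldh1a7, Rdh1 and Rarres1 lie below the dashed median line in culture and above it in fresh cells.

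The other members below the median on every cultured array were Rdh5, Rdh16, Adh4, Aldh1a2, Cyp26a1, Lrat, Ces1d, Bco1, Rarb and Rxrg. Together with the group above they read 3.62 to 7.27 units on the cultured arrays, KO and control alike, and none was tested there. In fresh cells 8 members remained untested (Adh4, Aldh1a2, Bco1, Cyp26a1, Lrat, Rarb, Rdh16 and Rxrg), with signals of 18.7 to 65.6 units apart from Lrat. Of these, Rarb, the receptor gene with the DR5 repeat shown above, read 22.0 and 21.5 on fresh KO arrays against 18.7 and 20.5 on control arrays. Cyp26a1, the other gene with that repeat, read 32.6 and 37.9 on fresh KO arrays against 32.9 and 34.6 on control arrays. Both lay below the median of every fresh array, and neither was tested.

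In each condition KO was compared with control by limma, with Benjamini-Hochberg adjustment over all probe sets above the array's median on at least 2 arrays. No member probe set passed an adjusted p of 0.05 in either condition. In culture, 0 of 33 tested member probe sets passed, against 0.273% of 22682 probe sets. At an unadjusted p under 0.05 there were 5 of these 33 (2 higher and 3 lower in KO), against 15.6% of all tested. The KO and control arrays did not overlap for 6 of the 33, against 22.3% of all tested. Both shares lie near the background. The median log2 change of the 33 was -0.01, as it was over all tested probe sets (-0.0068).

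In fresh cells 0 of 40 tested member probe sets passed, against 0% of 22893. At an unadjusted p under 0.05 there were 6 (15%), all lower in KO, near the 12.9% of all tested, where 1376 were higher and 1577 lower. Of the 6, 2 were Ces1d probe sets that entered the test through control arrays alone, which favours a lower KO value. The groups did not overlap for 19 of the 40, against 46.9% of all tested. The median log2 change was -0.02, against -0.00034 over all tested probe sets. By the probe set that stands for each gene, 10 members were higher and 11 lower in cultured KO cells, against 47.2% and 52.8% of all tested probe sets. In fresh KO cells 15 were higher and 13 lower, against 49.9% and 50.1%.

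**Figure D2:**
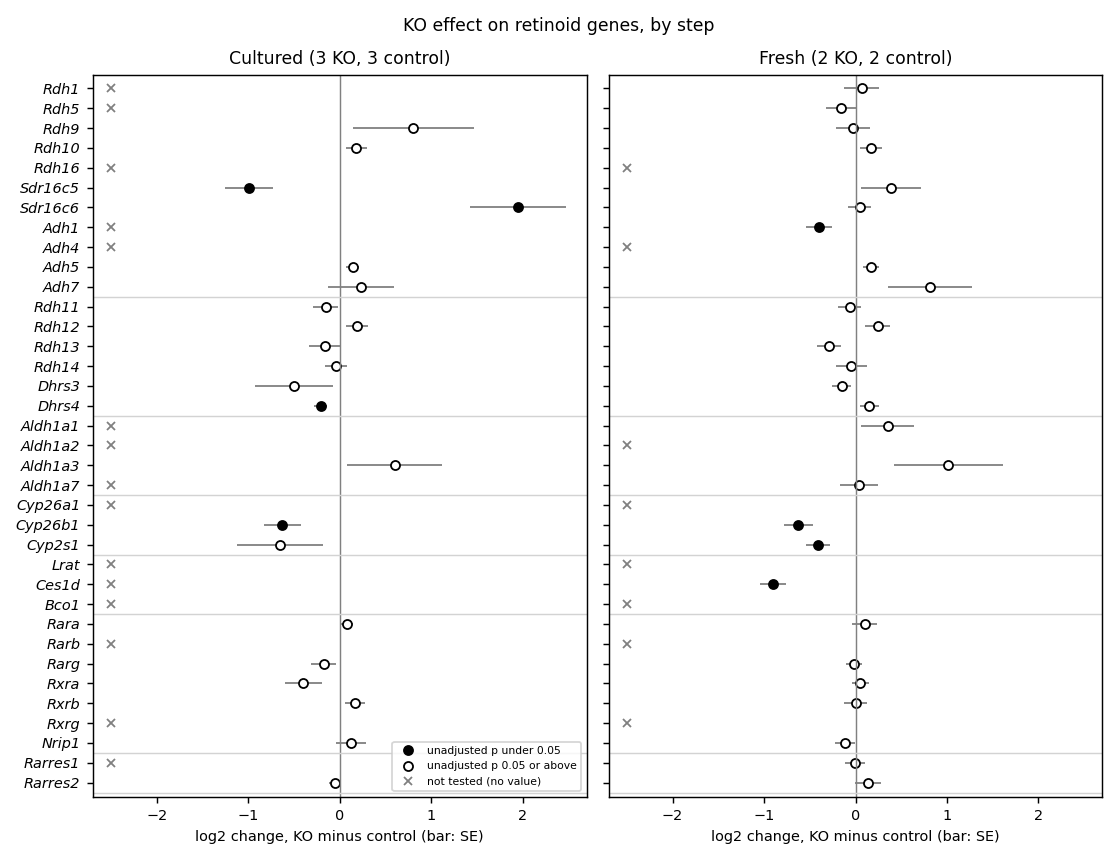
log2 change of KO minus control (horizontal axis) for the probe set that stands for each gene (vertical axis, ordered by step), in cultured cells (left, 3 KO and 3 control arrays) and fresh cells (right, 2 and 2); bars are limma standard errors, filled points have an unadjusted p under 0.05, and crosses at the left edge mark genes not tested. Sdr16c6 and Sdr16c5 lie farthest from 0 in culture, at 1.95 and -0.99, and no gene passed the adjusted threshold.

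Among the enzymes that oxidise retinol, the largest differences in culture belonged to a pair of neighbouring genes and pointed in opposite directions. Sdr16c5 and Sdr16c6 encode membrane-bound epidermal retinol dehydrogenases and lie next to each other with no protein-coding gene between. Sdr16c6 (probe set 1457025_at) read 305, 729 and 725 units on cultured KO arrays against 73.2, 199.8 and 191 on control arrays. Every KO array lay above every control array, with KO replicate 1 and control replicate 1 lowest in their groups. The log2 change was 1.95 (SE 0.53, 3 arrays each, limma adjusted p = 0.187), with a 95% interval of 0.65 to 3.24. Sdr16c5 (1440523_at) read 54.4, 71.6 and 41.5 units on cultured KO arrays against 140.5, 101 and 89.6 on control arrays. Every KO array lay below every control array, at a log2 change of -0.99 (SE 0.26, 3 arrays each, limma adjusted p = 0.180, 95% interval -1.63 to -0.35).

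In fresh cells neither gene separated the genotypes. Sdr16c6 read 1997 and 1749 units on KO arrays against 1651 and 1985 on control arrays, at a log2 change of 0.05 (SE 0.13, limma adjusted p = 0.904, 95% interval -0.28 to 0.37). Sdr16c5 read 449 and 231 on KO arrays against 273 and 223 on control arrays, at 0.39 (SE 0.33, limma adjusted p = 0.652). The groups of both genes overlapped. The difference of the KO effects, culture minus fresh, was 1.90 for Sdr16c6 (SE 0.54, limma-based adjusted p = 0.0980) and -1.38 for Sdr16c5 (SE 0.42, adjusted p = 0.115). Over all members 0 of 30 probe sets tested in both conditions passed for this difference, against 1.95% of 18773, and 4 had an unadjusted p under 0.05, against 18.9%. These calls depended on the setting, and the main fit called 367 of 18773 probe sets. With a replicate block, which pairs arrays by number, the limma-based adjusted p was 0.00428 for Sdr16c6 and 0.0465 for Sdr16c5. The labels do not give that pairing, and the block called 555 probe sets. Sdr16c6 also passed with array weights (limma-based adjusted p = 0.0348, 700 probe sets called) and without cultured KO replicate 1 (0.0476, 408 called). Neither gene passed with no filter, a stricter filter, no trend, 75th percentile centring, a floor at the array median or 1 fit over all 10 arrays.

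Suprabasal and cornified envelope markers mostly separated the genotypes in culture too. Of 9 markers, 7 read higher on every KO array than on every control array. Over all tested probe sets 22.3% showed no overlap, in either direction. The summed signal of the 9 was 5171 to 9011 units in KO against 1869 to 2011 in control. Their part in the Sdr16c6 and Sdr16c5 values was not tested. In bulk samples, fewer cells of a type and less RNA per cell cannot be told apart.

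**Figure D3:**
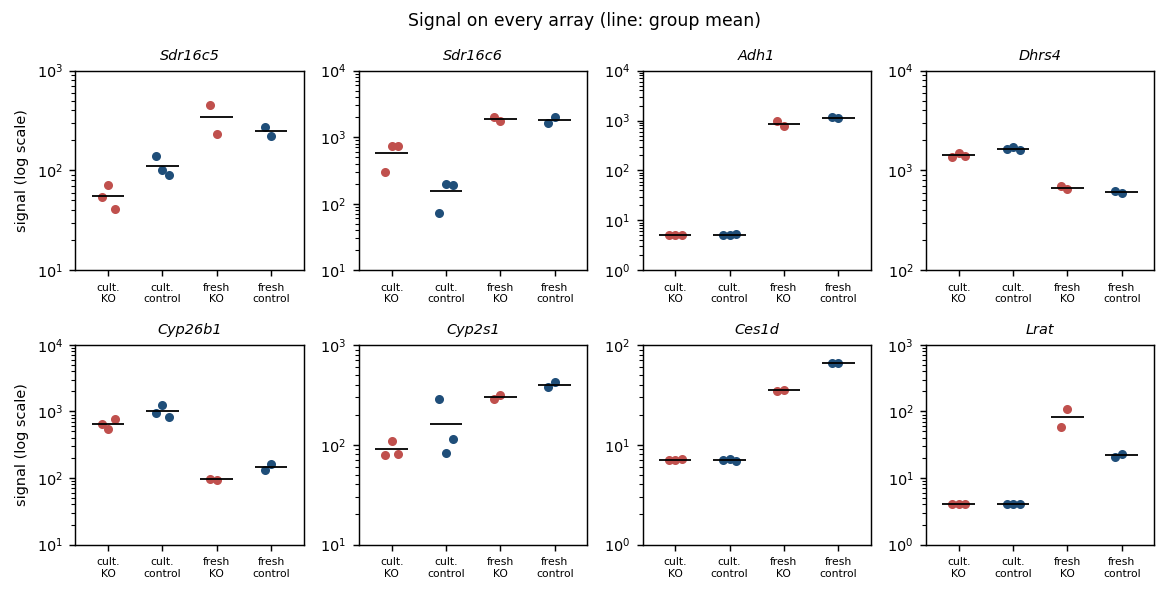
Signal (vertical axis, log scale, arbitrary units) on every array for 8 genes, with KO left of control for cultured and then fresh cells; points are arrays and lines group means. Sdr16c6 and Sdr16c5 separate the genotypes in culture alone, Cyp26b1 reads lower in KO in both conditions, and Ces1d and Lrat separate them in fresh cells, where cultured arrays read 7.27 units or less.

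Of the alcohol dehydrogenases, Adh1 (1416225_at), which oxidises retinol in the cytosol, was measurable in fresh cells alone. It read 978 and 765 units on fresh KO arrays against 1160.1 and 1123 on control arrays. Both KO arrays lay below both control arrays, at a log2 change of -0.40 (SE 0.14, 2 arrays each, limma adjusted p = 0.352). Adh5, the formaldehyde-detoxifying class of the family, read 8132, 8953 and 9356 units on cultured KO arrays against 7817, 7733 and 8439 on control arrays, and these overlapped. On fresh arrays Adh5 read 2019 and 2204 in KO against 1901 and 1856 in control, without overlap (log2 change 0.17, SE 0.09, limma adjusted p = 0.487). Rdh10, the enzyme that supplies most retinal in the mouse embryo, had log2 changes of 0.18 in culture and 0.17 in fresh cells (SE 0.12 in both) by the probe set that stands for it, and a second probe set gave -0.01 and -0.12. Rdh9, whose probe set design can also detect related transcripts, read 1533 and 1053 on fresh KO arrays against 1296 and 1288 on control arrays. In culture it read 10.9, 55.5 and 11.2 on KO arrays against 8.67, 11.1 and 13.2 on control arrays, so that its higher KO mean there rested on KO replicate 2. Rdh1, a mouse retinol dehydrogenase gene beside Rdh9, read 221 and 159.7 units on fresh KO arrays against 173.9 and 184 on control arrays, which overlapped.

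The reductases that return retinal to retinol were measured in both conditions, all 6 of them. Dhrs4 (1451559_a_at), a peroxisomal NADPH-dependent reductase, read 1375, 1500.4 and 1410 units on cultured KO arrays against 1629, 1727 and 1589 on control arrays. Every KO array lay below every control array, though the difference was small, with a log2 change of -0.21 (SE 0.07, 3 arrays each, limma adjusted p = 0.257). On fresh arrays Dhrs4 read 691 and 655 in KO against 620.0 and 593 in control, in the opposite direction (log2 change 0.15, SE 0.11). The difference of its KO effects, culture minus fresh, was -0.36 (SE 0.13, adjusted p = 0.165), and the second probe set pointed the same ways. Rdh11, a membrane-bound reductase, read 4737, 4044 and 3591 units on cultured KO arrays against 3945, 5061 and 4737 on control arrays, which overlapped. Rdh12, its neighbour on the chromosome and known for a role in photoreceptors, had log2 changes of 0.19 in culture (SE 0.12) and 0.24 in fresh cells (SE 0.14), and a second probe set was also above 0 in both. Rdh13 and Rdh14 had log2 changes of -0.16 and -0.04 in culture and -0.29 and -0.05 in fresh cells, with limma adjusted p from 0.429 to 0.929.

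Dhrs3, the retinal reductase that retinoic acid itself induces, read 18.8, 22.7 and 20.2 units on cultured KO arrays against 58.2, 20.5 and 20.4 on control arrays. The lower KO mean rested on control replicate 1. On fresh arrays it read 572 and 572 in KO against 616 and 655 in control, without overlap (log2 change -0.15, SE 0.11, 2 arrays each, limma adjusted p = 0.588).

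Of the retinal dehydrogenases that make retinoic acid, Aldh1a3 alone was tested in culture. Its probe set 1427395_a_at read 15.6, 16.9 and 60.1 units on cultured KO arrays against 16.3, 15.7 and 17.9 on control arrays, with KO replicate 3 alone standing out. On fresh arrays it read 64.1 and 239.7 in KO against 57.6 and 65.3 in control, with KO replicate 2 alone standing out. The fresh log2 change was 1.02 (SE 0.60, limma adjusted p = 0.524). It was 0.07 without KO replicate 2 and 1.97 without KO replicate 1, each time with 1 KO array left. Another probe set read 23.0 and 216.7 on fresh KO arrays against 21.7 and 26.2 on control arrays, and the remaining one 33.6 and 50.8 on KO arrays against 30.7 and 30.5 on control arrays. Fresh KO replicate 2 is the array with the inner root sheath transcripts: Krt25, a keratin of that layer, read 62.3 and 10946 units on fresh KO arrays against 282 and 74.7 on control arrays. On cultured KO replicate 3 Krt25 read 7.98 units, near that array's median of 7.9. Tchh, another inner root sheath gene, read 335 there, against 452 and 403 on the other KO arrays and 238, 322 and 279 on control arrays. Among cultured arrays 5 of the 6 inner root sheath genes were highest on control replicate 2, by small margins at low signal. Over the cultured arrays Krt25 ran from 7.78 to 8.12 units and Krt73 from 3.88 to 3.93. That array also had the highest cultured median, 8 units, and 5 of 6 fibroblast genes were highest on it too. Melanocyte genes were high on both arrays where Aldh1a3 stood out: all 5 were highest on fresh KO replicate 2 among fresh arrays, and 4 of 5 were highest on cultured KO replicate 3 among cultured arrays. Dct, a melanin synthesis enzyme gene, read 468 and 1846 units on fresh KO arrays against 285 and 204.5 on control arrays. In culture Dct read 109.7, 225 and 338 on KO arrays against 65.2, 126.6 and 70.0 on control arrays. The part of either cell type in the Aldh1a3 signal was not tested.

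**Figure D4:**
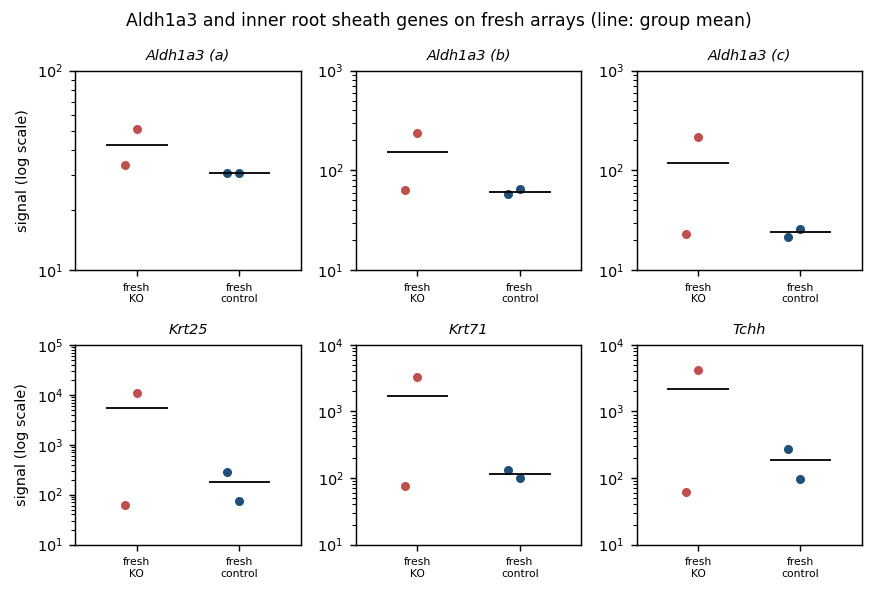
Signal (vertical axis, log scale, arbitrary units) of 3 Aldh1a3 probe sets and 3 inner root sheath genes on the 4 fresh arrays, KO left of control; points are arrays and lines group means. In each panel 1 KO array, replicate 2, is the highest, at 239.7 units for Aldh1a3 probe set b and 10946 for Krt25.

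Aldh1a1 and Aldh1a7 were tested in fresh cells. Aldh1a1 read 236 and 137.5 units on KO arrays against 158 and 126 on control arrays, and Aldh1a7 read 512 and 342 on KO arrays against 416 and 398 on control arrays. Groups overlapped for both, with KO replicate 1 the highest array, and the log2 changes were 0.35 (SE 0.29) and 0.04 (SE 0.21). Aldh1a2, the enzyme of embryonic mesoderm, read 19.3 and 22.2 on fresh KO arrays against 20.4 and 21.3 on control arrays, below the arrays' medians.

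The retinoic acid-degrading enzyme gene Cyp26b1 (1460011_at) was lower in KO by nearly the same factor in both conditions, without passing the threshold in either. It read 645, 541 and 774 units on cultured KO arrays against 943, 1270 and 835 on control arrays. On fresh arrays it read 96.0 and 94.2 in KO against 132 and 163 in control. KO and control arrays did not overlap in either condition. The log2 change was -0.63 in culture (SE 0.20, 3 arrays each, limma adjusted p = 0.241) and -0.63 in fresh cells (SE 0.16, 2 arrays each, limma adjusted p = 0.298). The 95% intervals were -1.13 to -0.13 and -1.03 to -0.22. The KO mean was 0.643 times the control mean in culture and 0.645 times in fresh cells, and the difference of the effects was -0.0035 (SE 0.26, adjusted p = 0.995). Leaving out any single array kept its log2 change between -0.76 and -0.46 in culture and between -0.78 and -0.47 in fresh cells.

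Cyp2s1, a cytochrome P450 of skin that can metabolise retinoic acid, read 285 and 315 units on fresh KO arrays against 376 and 423 on control arrays. Both KO arrays lay below both control arrays (log2 change -0.41, SE 0.13, 2 arrays each, limma adjusted p = 0.331). In culture it read 79.8, 109 and 81.0 units on KO arrays against 289, 82.6 and 115 on control arrays. These overlapped, and the log2 change of -0.65 (SE 0.47) fell to -0.13 without control replicate 1.

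The storage and supply genes were below the array's median on every cultured array. In fresh cells Lrat read higher in KO and was not tested, and Ces1d read lower without passing the threshold. Lrat, which esterifies retinol for storage, read 57.7 and 109.9 units on fresh KO arrays against 20.9 and 23.0 on control arrays by the probe set 1444487_at. Its second probe set read 25.6 and 29.5 on KO arrays against 15.9 and 16.4 on control arrays. Both KO arrays lay above both control arrays on each probe set, and KO replicate 2 was the highest on each. The control signals lay far below the arrays' medians, with the lowest array of the first probe set at the percentile 12.7 and that of the second at 5.38, so that no fold is given. On the first probe set 1 array alone exceeded its own median and on the second none, and the filter left Lrat untested.

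Ces1d, a carboxylesterase that can hydrolyse retinyl esters, read 34.6 and 35.6 units on fresh KO arrays against 65.7 and 65.3 on control arrays by the probe set 1435370_a_at. The log2 change was -0.90 (SE 0.14, 2 arrays each, limma adjusted p = 0.244, 95% interval -1.26 to -0.54). The other tested Ces1d probe set read 48.8 and 55.5 on KO arrays against 75.4 and 69.2 on control arrays (log2 change -0.47, SE 0.15, limma adjusted p = 0.334). The remaining one, whose design can cross-hybridise, read 22.8 and 22.6 on KO arrays against 33.9 and 33.4 on control arrays and was not tested. All 3 probe sets were lower on both KO arrays. The 2 tested ones entered the test through the control arrays alone, which favours a difference, and their signals lie around the arrays' medians. Bco1, which cleaves beta-carotene to retinal and holds the DR1 repeat shown above, read 43.9 and 63.4 on fresh KO arrays against 56.6 and 65.6 on control arrays, which overlapped.

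Marker genes of several cell types separated the genotypes on the fresh arrays, as Lrat, Ces1d, Cyp26b1, Cyp2s1 and Adh1 did. So did 46.9% of all tested probe sets. With 2 arrays against 2, genes that separate the genotypes run together whatever their source. All 6 fibroblast and all 5 melanocyte markers were higher, and 6 of 7 Langerhans cell and myeloid markers lower, on both KO arrays than on both control arrays. Of the fibroblast markers, 3 lay below the median of every fresh array, and Dcn alone read 1012 units on KO replicate 2. Of 7 sebaceous gland markers, 1 was higher and 2 were lower without overlap, and their summed signal was 759 to 867 units in KO against 897 to 1104 in control. Of 9 suprabasal and cornified markers, 5 were higher and 1 lower without overlap. The part of these cells in the retinoid values was not tested.

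The receptors showed no called difference. Rarg, the main retinoic acid receptor of epidermis, read 440.4, 419.7 and 431 units on cultured KO arrays against 587, 434 and 451 on control arrays. On fresh arrays it read 1129 and 1169 in KO against 1179 and 1146 in control. The groups overlapped in both conditions, and the fresh 95% interval of the log2 change was -0.25 to 0.22. Rxra, its usual partner, read 478, 691 and 634 units on cultured KO arrays against 967, 639 and 775 on control arrays, which overlapped (log2 change -0.40, SE 0.21, limma adjusted p = 0.407). On fresh arrays Rxra read 1832 and 1855 in KO against 1879 and 1680.3 in control, at 0.05 (SE 0.10). The other tested Rxra probe set read 91.8, 72.4 and 87.6 units on cultured KO arrays against 113.5, 93.1 and 96.0 on control arrays, with every KO array lower (log2 change -0.27, SE 0.14, limma adjusted p = 0.422). On fresh arrays it read 197 and 199.1 in KO against 219 and 200.8 in control, lower without overlap and opposite in sign to the first (log2 change -0.08, SE 0.13). A second Rarg probe set also had the opposite sign in fresh cells (log2 change 0.07, SE 0.17).

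Rxrb, the broadly expressed relative, read 724, 654 and 667 units on cultured KO arrays against 675, 548 and 607 on control arrays, and 685 and 734 on fresh KO arrays against 658 and 764 on control arrays. Groups overlapped in both conditions. Rara lay just above the array medians, with 9.86, 10.2 and 9.93 units on cultured KO arrays against 9.87, 10 and 8.57 on control arrays. On fresh arrays Rara read 95.2 and 104 in KO against 94.5 and 91.5 in control, with both KO arrays higher (log2 change 0.10, SE 0.14). Rxrg read 43.9 and 44.7 on fresh KO arrays against 37.4 and 46.0 on control arrays, below the medians. Limma adjusted p over the tested receptors and Nrip1, by the probe set that stands for each, ran from 0.407 to 0.752 in culture and from 0.692 to 0.998 in fresh cells.

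Nrip1 encodes a ligand-dependent corepressor of nuclear receptors, retinoic acid receptors among them. The probe set that stands for it read 866, 762 and 774 units on cultured KO arrays against 881, 586 and 763 on control arrays, and 1117 and 1109 on fresh KO arrays against 1292 and 1123 on control arrays. Groups overlapped in culture, and both fresh KO arrays were lower, with log2 changes of 0.12 (SE 0.16) and -0.11 (SE 0.11). Another of its 6 probe sets (1449089_at) read 653, 554 and 606 units on cultured KO arrays against 497, 474 and 478 on control arrays, with every KO array higher. On fresh arrays that probe set read 522 and 449 in KO against 605 and 603 in control, with both KO arrays lower. The difference of the effects was 0.64 (SE 0.16, adjusted p = 0.0621), the lowest among the members. It passed with array weights (limma-based adjusted p = 0.0479), where 700 of 18773 probe sets were called, against 367 in the main fit. Without fresh KO replicate 1, which leaves 1 fresh KO array, the difference was 0.75. Of the 4 Nrip1 probe sets tested in culture, 3 were higher and 1 lower in KO, and of the 4 tested in fresh cells all were lower.

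Of the retinoic acid-responsive genes, Rarres1 read 2184 and 2026 units on fresh KO arrays against 1952 and 2283 on control arrays, which overlapped (log2 change -0.01, SE 0.11, 95% interval -0.28 to 0.27). Rarres2, which encodes the chemoattractant chemerin, read 73.4 and 77.4 on fresh KO arrays against 71.7 and 65.4 on control arrays. Its probe set design can detect related transcripts, and the log2 change was 0.14 (SE 0.14). In culture Rarres2 read 18.2 to 20.7 units over both genotypes.

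Other genes of the pathway, 27 in all with binding proteins, coregulators and lipid enzymes, gave the same count of calls. Of these, 21 were on the array by a probe set of their own and 12 were tested in each condition, with 0 called by limma. At an unadjusted p under 0.05 there were 3 of 12 in culture, against 15.6% of all tested probe sets, and 1 of 12 in fresh cells, against 12.9%. Whether these counts differ from the background was not tested. Crabp2, which carries retinoic acid to the nucleus, averaged 2303 ± 539 units in cultured KO cells and 1155 ± 274 in control (SD, n = 3 each, limma adjusted p = 0.175). Its groups overlapped in fresh cells, at a log2 change of -0.08 (SE 0.11, limma adjusted p = 0.790). Fabp5, a carrier that can pass retinoic acid to PPARD, averaged 33232 ± 2859.9 in cultured KO cells and 22118 ± 4816 in control (limma adjusted p = 0.178). Its fresh log2 change was 0.38 (SE 0.12, limma adjusted p = 0.331). Lpl, a lipase that frees retinol from lipoprotein esters, averaged 118 ± 48.0 in cultured KO cells and 263 ± 95.7 in control (limma adjusted p = 0.266). In fresh cells Lpl pointed the other way, at a log2 change of 0.36 (SE 0.20, limma adjusted p = 0.497). Stra6, the retinol uptake receptor, averaged 752 ± 67.2 in cultured KO cells and 943 ± 302 in control (limma adjusted p = 0.586). These groups overlapped, and the higher control mean rested on control replicate 1, at 1291 units.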

How the data were processed

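Total RNA of 10 samples was amplified, biotin-labelled and hybridised to Affymetrix whole-genome mouse arrays, per the labels' protocols. The authors deposited 1 linear intensity per probe set and array. The submitters' processing notes name MAS5, with no settings given in the sources used here. Intensities were taken to log2 with no offset. KO was set against control in cultured and fresh arrays apart, using a linear model per probe set with a trended moderated variance in limma 3.58.1 under R 4.3.3 (2-sided). A probe set was tested where at least 2 arrays of that condition exceeded their own medians, and p-values were adjusted by Benjamini-Hochberg over all tested ones, with a threshold of 0.05. The difference of the KO effects combined the moderated standard errors of both fits.

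Symbols are those of the platform annotation, brought up to date by Entrez identifier from RefSeq. Of 45037 probe sets, 34945 had 1 symbol, 932 several and 9160 none here. A gene with several was represented by its probe set of highest mean log2 intensity. Values on every array are given for members at an unadjusted p under 0.05 in any comparison, for receptors and for the strongest signal of each step; those of other members were added after their values were seen. Members and lists were chosen with earlier results of these data known. The procedure was tested on simulated data, where it called 62 of 100 2-fold changes in culture and 17 of 100 in fresh cells. Of 4-fold changes it called 92 of 100 in culture and 67 of 100 in fresh cells. The number of arrays limits the precision.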

Additional observations from a re-analysis of the deposited data

How the results depend on the processing

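No member was called in culture under any alternative, leaving out each array in turn included. In fresh cells 2 of 43 member probe sets were called in 1 fit over all 10 arrays, against 393 of 26802 over all probe sets. Both were of Ces1d, which passed the filter through control arrays alone. Its spread in that fit comes mostly from cultured arrays at low, nearly constant signals. Leaving out 1 fresh array leaves 1 array in a group, so the calls of those fits are not given. For the difference of the KO effects, 4 were called with no filter (2 of Lrat and 2 of Ces1d, whose cultured values lie below the arrays' medians), 2 with array weights (Nrip1, Sdr16c6), 2 with a replicate block (Sdr16c5, Sdr16c6) and 1 in the fit over all 10 arrays (Ces1d); leaving out 1 array gave 0 to 3. Where 1 array was left in a fresh group, it was assumed to vary like the other group. The cause of these changes was not tested. Same-numbered KO and control arrays deviated together at correlations of 0.32, 0.08 and 0.25 in culture, where arrays of different numbers gave -0.30 to 0.17. In fresh cells the correlations were -0.05 for same numbers and 0.05 for different ones. With 2 arrays per group these are equal in size by construction and cannot show a pairing. The labels give no pairing, so the main fit used none, and whether the cultured numbers pair samples is not known here. The replicate block changed no other member call; over all probe sets it gave 17 calls in place of 62 in culture and 555 in place of 367 for the difference.

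The median log2 change of members in culture was -0.028 with the stricter filter, 0.0074 with 75th percentile centring, 0.0040 with array weights and 0.00081 in the fit over all arrays, and -0.036 to 0.065 without 1 array. In fresh cells it was -0.0051 with the stricter filter and -0.067 to 0.019 without 1 array. The sign of the uncalled difference of KO effects turned for Cyp26b1 with centring (0.0092) and array weights (0.052) and for Cyp2s1 with array weights (0.011). Leaving out 1 array moved that difference from -0.15 to 0.17 for Cyp26b1, -0.62 to 0.28 for Cyp2s1 and -1.37 to 0.53 for Aldh1a3. It moved the log2 change of Aldh1a3 in culture from -0.029 to 0.94, and in fresh cells that of Sdr16c5 from -0.093 to 0.86 and of Sdr16c6 from -0.087 to 0.18. The count of 5 probe sets low in culture and high in fresh cells was 5 to 7 without 1 array, 5 with the limit at the 60th percentile and 7 at the 40th, settings chosen after seeing the data.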

Other observations

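Adh7, an alcohol dehydrogenase of stratified epithelia with high activity on retinol, varied widely among arrays of the same genotype. Its probe set 1421058_at read 198, 1340.5 and 1783 units on cultured KO arrays against 636, 189 and 1297 on control arrays. A second probe set read 1086, 2232 and 2085 on the same KO arrays against 1151, 1262 and 2133 on control arrays. On each probe set KO replicate 1 and control replicates 1 and 2 were the lower arrays of their groups, and the cultured log2 changes were 0.53 (SE 1.06) and 0.24 (SE 0.36). On fresh arrays the second probe set read 956 and 949 in KO against 326 and 902 in control, with control replicate 1 low, while the first read 473 and 487 in KO against 416 and 648 in control.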
